A study of Rattus norvegicus with 22 samples.

Results

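The genes described here code for the constitutive 26S proteasome, measured by RNA sequencing in rat liver. They are the rows of the deposited table named Psma, Psmb, Psmc or Psmd with a number, of mean normalised count 10 or more across all 22 libraries, without the immunoproteasome genes Psmb8, Psmb9 and Psmb10. The pattern matched 38 names, the 3 immunoproteasome names were left out, and Psma8 lay under the minimum with a mean of 3.72. This left 34 of the 14971 genes of the table, 14 of the core (Psma1 to Psma7, Psmb1 to Psmb7) and 20 of the cap (Psmc1 to Psmc6, Psmd1 to Psmd14). The lowest means among the members, well above the minimum, were 47.8 for Psmd10 and 57.6 for Psmb6. Psmd5, Psmd9 and Psmd10 share the naming but code for assembly chaperones of the cap, and they are described apart.

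The study crossed a nerve lesion with an inhaled gas. Rats had either sham surgery or hepatic vagotomy, which cuts the branch of the vagus nerve to the liver, at 12 weeks of age, and then 5 to 6 days of recovery. The air or ozone (1.0 ppm) was then given for 4 hours a day on either 1 day or 2, and livers were taken within 2 hours. The 4 groups were Sham_Air (sham surgery, air, n = 5), HepV_Air (vagotomy, air, n = 6), Sham_O3 (sham surgery, ozone, n = 6) and HepV_O3 (vagotomy, ozone, n = 5). All groups had surgery and recovery, so no group was unoperated. The labels give neither strain nor sex, do not say which library had 1 day and which 2 days, and do not state that each library is a separate rat, so p-values measure the spread between these libraries.

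The 26S proteasome is the main protease of the cytosol and nucleus for proteins tagged with ubiquitin. Its barrel-shaped core has outer rings of alpha subunits (Psma), which form the gate, and inner rings of beta subunits (Psmb), of which Psmb5, Psmb6 and Psmb7 cut peptide bonds. The cap holds a ring of ATPases (Psmc), which unfold the substrate and feed it into the core, and non-ATPase subunits (Psmd), which bind ubiquitin chains, remove them and hold the cap together. Core and cap are built by separate chaperones, and in mammals the transcription factor NRF1 (gene Nfe2l1) raises many subunit genes when proteasome activity falls short. In liver the proteasome works beside autophagy in the turnover of hepatocyte proteins.

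Read counts recovered from the deposited values came to 14098863 to 21141337 per library, and the 34 genes held 0.173% to 0.219% of them. The smallest read count of any member in any library was 21. Values below are normalised counts, which are reads divided by 1 size factor per library, and changes are differences of log2(normalised count + 1) with their standard error (SE). They came from limma over 12424 genes, with Benjamini-Hochberg adjustment over all of them, and the words rose and fell stand for an adjusted p under 0.05. Because lengths were not divided out, levels are compared between libraries and not between genes. Liver identity showed in 6 hepatocyte markers, such as Alb, whose summed normalised count ranged from 1922832 to 2709285 over all libraries, and no hepatocyte marker stood at 0. In 4 libraries (HepV_Air 1 and 5, Sham_O3 3 and HepV_O3 1) 5.8S ribosomal RNA was low, with at most 179.5 normalised counts against at least 342 in the other 18. These 4 stood apart in several members, so results are also given without them.

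Ozone was followed by higher transcripts of 8 of the 34 genes in sham-operated rats, and of none lower (13.8% of all tested genes fell). They were Psmd9, Psmb4, Psmc5, Psmd12, Psma3, Psmc3, Psmc1 and Psma1, with rises of 1.28-fold to 1.97-fold. By role, 2 of 7 alpha subunits rose, 1 of 7 beta subunits, 3 of 6 ATPases, 1 of 11 non-ATPase subunits and 1 of the 3 chaperones. The 8 are 23.5% of the members, beside 14.6% of all 12424 tested genes that rose in this comparison and 28.4% that changed either way. Groups did not overlap for 6 members (Psmb4, Psmc1, Psmc3, Psmc5, Psmd12 and Psmd9), beside 15.4% of all genes. The median change was 0.21 for the core and 0.15 for the cap, beside 0.008 for all genes, and 27 of 34 members lay above the median of all genes. Rescaling all libraries to equal totals moved the median of all genes to -0.094 and those of core and cap to 0.10 and 0.05, so their distances from all genes were 0.20 and 0.14, against 0.20 and 0.15 as deposited. Rises made up 51.3% of all calls, but 33.9% with equal totals and 35.5% with equal upper quartiles. All 8 rises were called in each of the 34 other settings tried, among them edgeR, DESeq2 and leaving out each library. When the 4 low-5.8S libraries were dropped, medians were 0.09 for the core and 0.16 for the cap, 10 members rose (Psma2 and Psmd6 in addition) and Psmd5 fell. In that fit 19.1% of all genes rose and 16.8% fell, so the share of all genes called was also higher. The core median was 0.09 without Sham_O3 3 alone, and was 0.14 to 0.28 without any 1 of the other libraries.

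**Figure D1:**
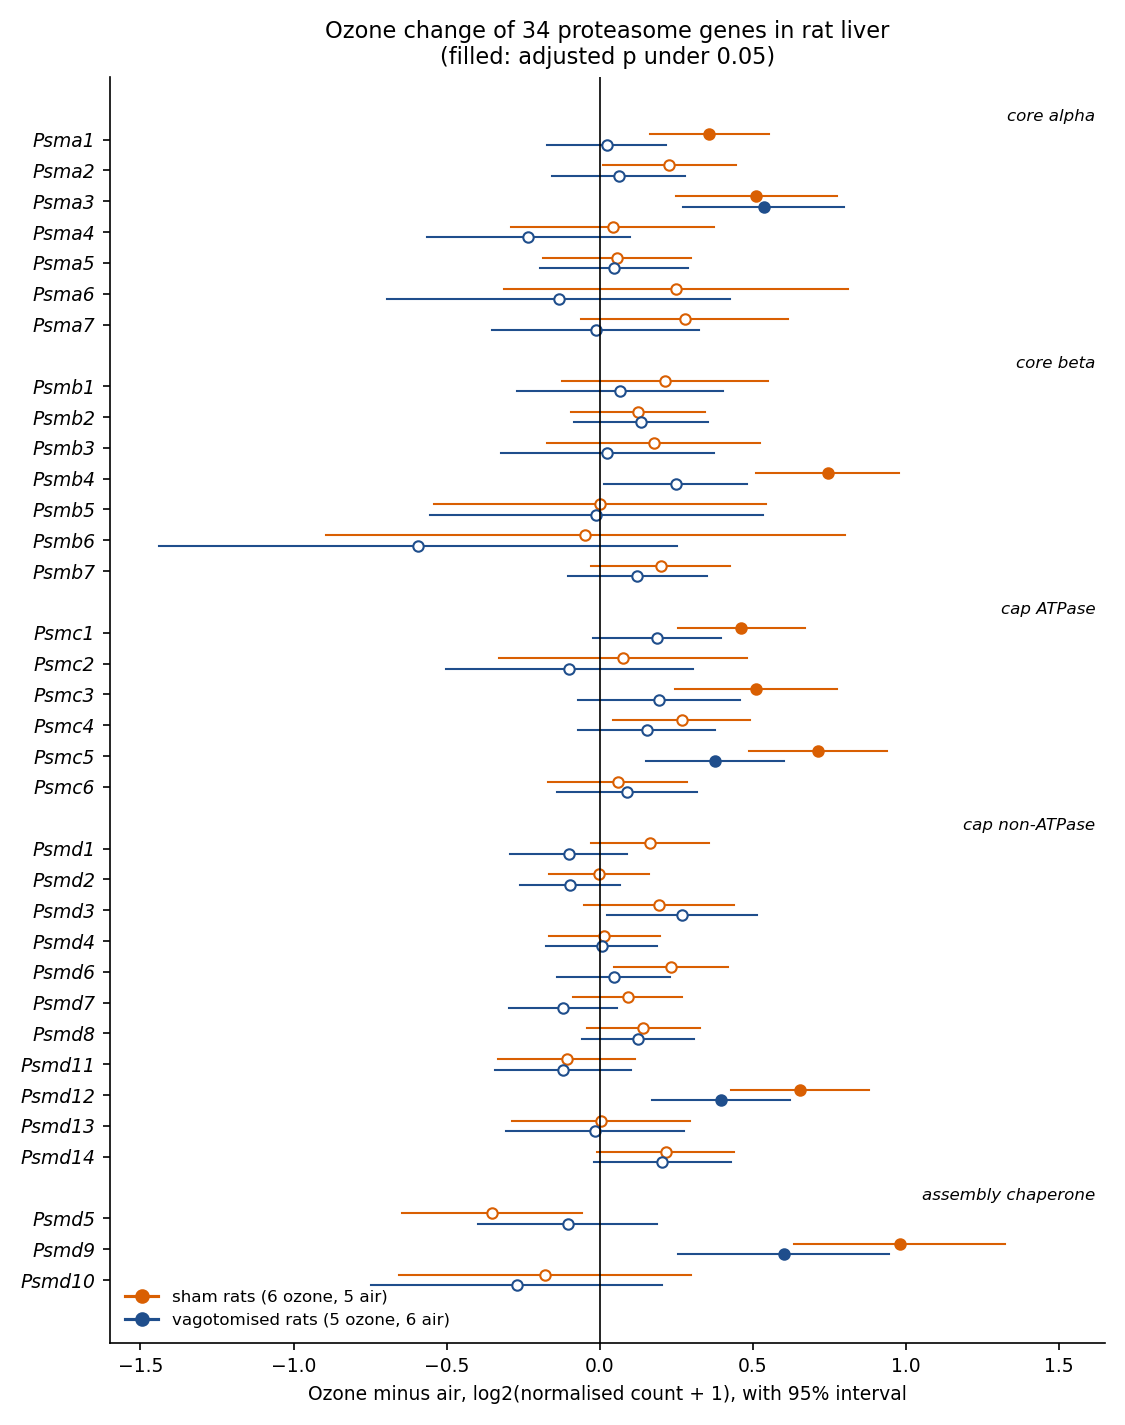
Change from air to ozone for each of the 34 genes, as log2(normalised count + 1) with its 95% interval, in sham rats (orange) and vagotomised rats (blue), ordered by role. Filled points passed an adjusted p of 0.05: 8 in sham rats and 4 in vagotomised rats, all to the right of 0.

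Promoters of 5 members are shown so that genes that rose (Psma3, Psmb4, Psmc5, Psmd9) can be set beside a catalytic gene that was not called (Psmb5). They are the 250 bases before the transcript start from RefSeq on build GRCr8, in the gene's direction. Psma3 lies at chr6:95219499-95219748 on the plus strand, Psmd9 at chr12:39018265-39018514 on the minus strand, Psmb5 at chr15:32047380-32047629 on the minus strand, Psmb4 at chr2:185134562-185134811 on the minus strand and Psmc5 at chr10:91687303-91687552 on the plus strand. Capitals mark TGACNNNGC on either strand in Psma3, Psmd9 and Psmb5, the core of the antioxidant response element bound by NRF1 and NRF2 with small Maf proteins. In Psmb4 they mark CCGGAAG and CGGAAGT, motifs of ETS factors, on the reverse strand. Psmc5 held none of these motifs in this window and is printed without capitals.
Psma3: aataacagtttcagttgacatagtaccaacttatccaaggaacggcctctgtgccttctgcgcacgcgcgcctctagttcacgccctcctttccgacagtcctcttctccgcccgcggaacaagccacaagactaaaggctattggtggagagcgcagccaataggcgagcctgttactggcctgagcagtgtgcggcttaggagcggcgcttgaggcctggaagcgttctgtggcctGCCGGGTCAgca
Psmd9: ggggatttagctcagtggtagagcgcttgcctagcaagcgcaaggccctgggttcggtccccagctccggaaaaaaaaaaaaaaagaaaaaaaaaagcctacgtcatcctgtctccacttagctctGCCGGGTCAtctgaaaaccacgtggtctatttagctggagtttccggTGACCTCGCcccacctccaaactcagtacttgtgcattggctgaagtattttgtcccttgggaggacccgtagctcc
Psmb5: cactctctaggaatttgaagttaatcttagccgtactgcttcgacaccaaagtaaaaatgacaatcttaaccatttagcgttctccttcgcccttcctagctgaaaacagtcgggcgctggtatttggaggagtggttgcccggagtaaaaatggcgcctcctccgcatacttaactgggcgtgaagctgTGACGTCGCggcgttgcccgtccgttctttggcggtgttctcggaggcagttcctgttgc
Psmb4: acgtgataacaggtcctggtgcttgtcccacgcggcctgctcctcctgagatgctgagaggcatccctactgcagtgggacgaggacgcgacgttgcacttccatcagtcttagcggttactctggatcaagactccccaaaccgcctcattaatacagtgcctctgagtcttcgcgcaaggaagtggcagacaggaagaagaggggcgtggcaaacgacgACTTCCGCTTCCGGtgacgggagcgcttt
Psmc5: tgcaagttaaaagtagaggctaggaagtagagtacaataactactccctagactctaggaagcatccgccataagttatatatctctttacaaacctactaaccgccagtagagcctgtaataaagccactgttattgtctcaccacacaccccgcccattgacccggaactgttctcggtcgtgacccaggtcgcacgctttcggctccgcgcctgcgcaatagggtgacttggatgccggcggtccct
Of the 34 genes, 30 had an entry in the promoter table, and Psma7, Psmd12, Psmd14 and Psmd6 had none. TGACNNNGC stood in 6 of the 30 (20.0%: Psma3, Psmb2, Psmb5, Psmb6, Psmd1 and Psmd9), beside 10.1% of 33469 promoters of the same length. The stricter form TGACTCAGC, which TGACNNNGC includes, was in 0 of 30, beside 0.376% of all. In Psma3 the match began at -12 from the start, in Psmb5 at -60, and Psmd9 held a pair, at -124 and -77. Among members that rose and had a promoter entry, 2 of 7 held the motif. Motifs of broadly expressed genes were common: GGGCGG in 21 of 30 (70.0%, against 30.5% of all), CCAAT in 16 (53.3%, against 34.0%), CGGAAGT in 10 (33.3%, against 5.22%) and CCGGAAG in 9 (30.0%, against 7.27%), where the last 2 can overlap. Fewer held TCTCGCGA (3, or 10.0%, against 0.747%), ATGGCGG (3, or 10.0%, against 2.47%) and TGAGTCA (1, or 3.33%, against 4.05%). All 9 motifs were searched on both strands, and a match describes letters, not binding. The 33469 promoters were all entries available, not chosen for expression in liver or for base content. The shares therefore do not compare like with like.

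Among the alpha subunits, which make the outer rings and the gate of the core, Psma3 and Psma1 rose in sham rats. Psma3 stood at 964, 1015, 940.3, 1089 and 986 in the 5 Sham_Air libraries and at 1033 to 1721 (median 1511, n = 6) in Sham_O3. The groups overlapped only through Sham_O3 3, a library low in 5.8S, at 1033. The change was 0.51 ± 0.13 (SE, adjusted p = 0.0040), and 0.60 ± 0.09 (adjusted p = 2.1e-05) without the 4 libraries. Psma1 stood at 781, 777, 654, 734 and 645 in Sham_Air and at 776 to 1092 (median 925, n = 6) in Sham_O3, a change of 0.36 ± 0.09 (SE, adjusted p = 0.0060). Its lowest ozone library, Sham_O3 6, lay below the 2 highest air libraries. Psma2, Psma4, Psma5, Psma6 and Psma7 did not pass, with changes from 0.04 to 0.28.

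Within the beta rings the largest change was in Psmb4, a structural subunit without protease activity. It stood at 1288, 1015, 1082, 1103 and 1130.0 in Sham_Air and at 1670.5 to 2443 (median 1798, n = 6) in Sham_O3, with every ozone library above every air library. The change was 0.74 ± 0.11 (SE, adjusted p = 3.3e-05), 1.68-fold. The 3 catalytic genes did not pass. Psmb5, the chymotrypsin-like subunit, stood at 609, 336, 465, 486 and 352 and at 332 to 875 (median 383, n = 6), a change of 0.0010 ± 0.26 (SE, adjusted p = 0.999). Psmb6, the caspase-like subunit, stood at 85.6, 50.6, 49.2, 39.6 and 40.0 and at 28.3 to 148 (median 42.5, n = 6), a change of -0.05 ± 0.41 (SE, adjusted p = 0.95). Psmb7, the trypsin-like subunit, stood at 3228, 2383, 2389, 2919 and 2439 and at 2622 to 3877 (median 2856, n = 6), a change of 0.20 ± 0.11 (SE, adjusted p = 0.19). The 95% intervals of these 3 changes ran from -0.54 to 0.54, -0.89 to 0.80 and -0.03 to 0.43, so a rise of up to 0.54 for Psmb5 and 0.80 for Psmb6 could not be told from 0. Psmb1, Psmb2 and Psmb3 did not pass either, with changes from 0.13 to 0.21.

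ATPases form the ring of the cap that opens the gate and unfolds substrates, and 3 of the 6 rose. Psmc5 stood at 705, 605, 526, 558 and 616 in Sham_Air and at 855 to 1188 (median 991, n = 6) in Sham_O3, a change of 0.71 ± 0.11 (SE, adjusted p = 3.7e-05). Psmc1, whose protein tail reaches into the alpha ring, stood at 633, 663, 554, 497 and 559 and at 704 to 962 (median 775, n = 6), a change of 0.46 ± 0.10 (SE, adjusted p = 0.0014). Psmc3, with a gate-opening tail of the same kind, stood at 932, 853, 949, 777 and 924 and at 1023 to 1388 (median 1299.9, n = 6), a change of 0.51 ± 0.13 (SE, adjusted p = 0.0044). For each of the 3, all 6 ozone libraries lay above all 5 air libraries. Psmc4 just missed the threshold at 0.27 ± 0.11 (SE, adjusted p = 0.067), and Psmc2 and Psmc6 had changes of 0.08 and 0.06.

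Of the 11 non-ATPase subunits only Psmd12, a lid subunit, rose. It stood at 616, 566, 567, 559 and 536 in Sham_Air and at 707 to 1095 (median 933, n = 6) in Sham_O3, and the groups did not overlap. The change was 0.66 ± 0.11 (SE, adjusted p = 9.1e-05). The others ranged from -0.11 (Psmd11) to 0.23 (Psmd6, adjusted p = 0.054). They include the scaffold Psmd2 at -0.0020 ± 0.08, the ubiquitin receptor Psmd4 at 0.02 ± 0.09 and the deubiquitinase Psmd14 at 0.22 ± 0.11.

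The 3 assembly chaperones named as cap subunits did not move together. Psmd9 had the largest change of all 34 genes. It stood at 149, 168, 155, 158 and 157 in Sham_Air and at 266 to 489 (median 275, n = 6) in Sham_O3, a change of 0.98 ± 0.17 (SE, adjusted p = 0.00012) with no overlap, and 0.85 ± 0.11 (adjusted p = 1.2e-05) without the 4 libraries low in 5.8S. Psmd5 stood at 1159, 1256, 923, 1065 and 924 and at 684 to 994 (median 816, n = 6), a change of -0.35 ± 0.14 (SE, adjusted p = 0.067), so it missed the threshold. It passed as a fall in 8 of the other settings, among them equal totals, DESeq2 and the fit without the 4 libraries. Psmd10, also known as gankyrin, stood at 53.5, 39.7, 46.5, 37.6 and 52.3 and at 21.2 to 63.0 (median 46.2, n = 6), a change of -0.18 ± 0.23 (SE, adjusted p = 0.60), with groups that overlapped widely.

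**Figure D2:**
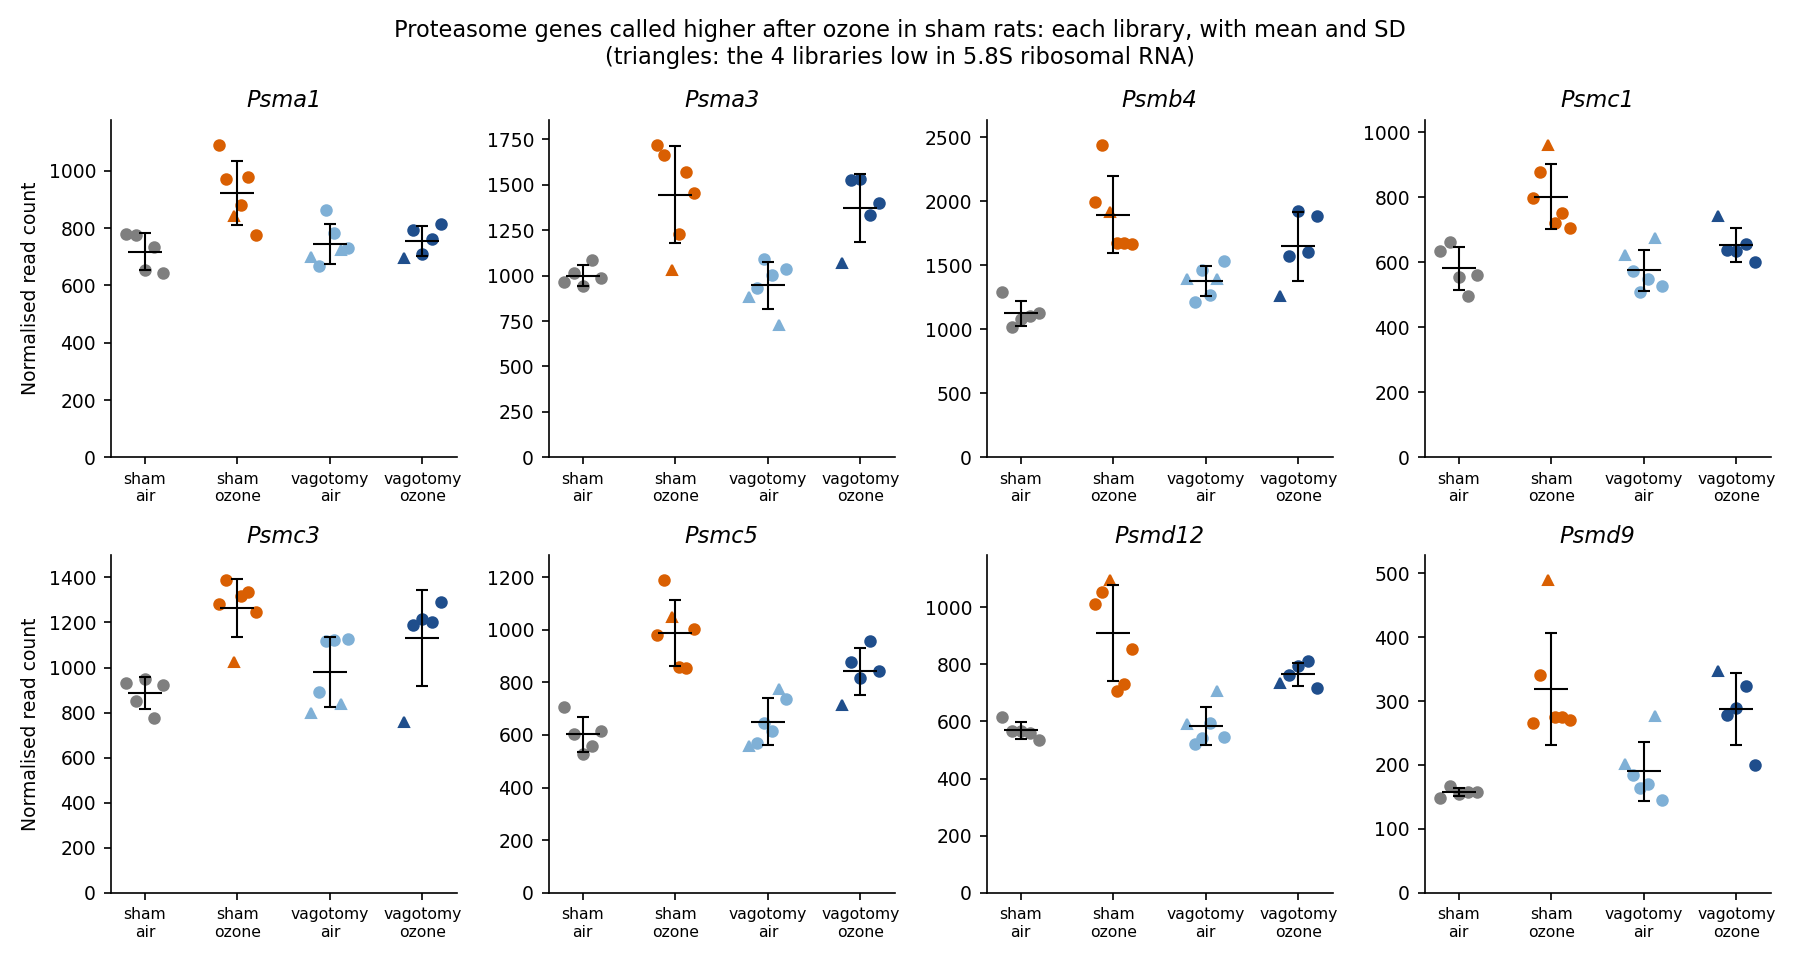
Normalised read count of the 8 genes that rose after ozone in sham rats, 1 panel a gene, 1 point a library, with mean and SD of each of the 4 groups; triangles are the 4 libraries low in 5.8S ribosomal RNA. In 6 panels every sham ozone point lies above every sham air point, and in the panels of Psma1 and Psma3 the groups overlap.

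After hepatic vagotomy, ozone was followed by higher transcripts of 4 of the 34 genes, Psma3, Psmd9, Psmd12 and Psmc5, and lower transcripts of none. These are 11.8% of the members, beside 11.4% of all genes that rose and 21.1% that changed, so the share is close to that of all genes. Of all genes 9.63% fell. At an unadjusted p under 0.05 stood 6 members, beside 4021 of 12424 genes (32.4%). Psma3 stood at 729.9 to 1089 (median 968, n = 6) in HepV_Air and at 1072, 1524, 1534, 1331 and 1399 in HepV_O3, a change of 0.54 ± 0.13 (SE, adjusted p = 0.0039). Psmd9 stood at 145 to 276 (median 178, n = 6) and at 347, 278, 289, 324 and 201, a change of 0.60 ± 0.17 (SE, adjusted p = 0.012). In both genes the ranges overlapped, in Psmd9 between HepV_Air 5, a library low in 5.8S, at 276 and HepV_O3 5 at 201. Psmd12 stood at 521 to 706 (median 569, n = 6) and at 736, 761, 793, 813 and 719, a change of 0.40 ± 0.11 (SE, adjusted p = 0.012). It was the 1 member without overlap, beside 11.7% of all genes. Psmc5 stood at 557 to 776 (median 631, n = 6) and at 714, 876, 817, 959 and 843, a change of 0.38 ± 0.11 (SE, adjusted p = 0.016), and its call was lost (adjusted p = 0.0503) without HepV_O3 4.

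Psmb4 did not pass in vagotomised rats. It stood at 1213 to 1531 (median 1394, n = 6) in HepV_Air and at 1263, 1572, 1928, 1605 and 1884 in HepV_O3, a change of 0.25 ± 0.11 (SE, adjusted p = 0.13). Its lowest ozone library was HepV_O3 1, low in 5.8S, and without the 4 such libraries the change was 0.35 ± 0.12 (adjusted p = 0.040). Psmc3 changed by 0.19 ± 0.13 (SE, adjusted p = 0.31) and passed (0.33, adjusted p = 0.0317) without HepV_O3 1 alone, at 758 the lowest of its group. Psma1 and Psmc1 changed by 0.02 ± 0.09 and 0.19 ± 0.10. The catalytic Psmb5 and Psmb7 changed by -0.01 ± 0.26 and 0.12 ± 0.11, and Psmb6 by -0.59 ± 0.41 (SE, adjusted p = 0.34), the largest negative value among the members. Psmd10 followed with -0.27 ± 0.23 (SE, adjusted p = 0.46). The mean count of Psmb6 was 69.6 in HepV_Air and 46.0 in HepV_O3. Without the libraries low in 5.8S these means were 44.7 and 32.9. The median was 0.04 for the core and 0.07 for the cap, beside -0.008 for all genes, and the core median was -0.03 when libraries were set to equal upper quartiles, where that of all genes was -0.070. Without the 4 libraries low in 5.8S the core median was 0.07 and the cap median 0.04, so their order turned. Leaving out 1 library at a time gave -0.001 (without HepV_Air 2) to 0.09 (without HepV_Air 1) for the core, and 0.03 (without HepV_Air 1) to 0.10 (without HepV_O3 1) for the cap. Rises made up 54.3% of all calls, and 42.3% with equal upper quartiles.

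Vagotomy itself was compared with sham surgery at each exposure, and by limma 0 of 34 members passed in either. In air, 1 member and 387 of 12424 genes (3.11%) had an unadjusted p under 0.05, and limma, edgeR and DESeq2 called 0 genes. The smallest p-values were for Psmb4 (a difference of 0.29 ± 0.11 SE, unadjusted p = 0.016), Psmd3 (-0.17 ± 0.12 SE, unadjusted p = 0.16) and Psmd9 (0.24 ± 0.17 SE, unadjusted p = 0.16). The median difference was 0.03 in the core and 0.01 in the cap, and without the 4 libraries low in 5.8S, 2 of which are HepV_Air libraries, -0.15 and -0.02. In ozone, 7 members and 1862 of 12424 genes had an unadjusted p under 0.05, and 1.34% of all genes were called (0.805% as higher, 0.531% as lower). Ranges did not overlap for 0 members in ozone, beside 2.12% of all genes. The smallest were for Psmd7 (-0.27 ± 0.09 SE, unadjusted p = 0.0048, adjusted p = 0.12), Psma1 (-0.28 ± 0.09 SE, unadjusted p = 0.0061) and Psmc1 (-0.29 ± 0.10 SE, unadjusted p = 0.0087), and of the members Psmd7 alone passed by DESeq2, as lower after vagotomy (adjusted p = 0.042). Psmd7, the lid partner of the deubiquitinase Psmd14, stood at 1177 to 1598 (median 1253, n = 6) in Sham_O3 and at 1112, 1126, 1076, 1191 and 1045 in HepV_O3, and the ranges overlapped. In ozone 30 of 34 members lay below the median of all genes (-0.010), with medians of -0.17 for the core and -0.10 for the cap. With equal totals the median of all genes was 0.090, the core median -0.06 and the cap median 0.004, so the sign of the cap median turned while its distance from all genes was -0.09 under both scalings. Rises made up 60.2% of all calls here, and 85.5% with equal totals.

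Whether the ozone change differed with surgery was tested as the difference of the 2 ozone changes. No member passed by limma, edgeR or DESeq2, 3 had an unadjusted p under 0.05, and of all genes limma called 0 and DESeq2 20, with 1147 of 12424 (9.23%) at an unadjusted p under 0.05. The 3 were Psmb4, at -0.50 ± 0.16 SE, unadjusted p = 0.0050 and adjusted p = 0.39, Psma1 (-0.33 ± 0.13 SE, unadjusted p = 0.019) and Psmc5 (-0.34 ± 0.15 SE, unadjusted p = 0.040). The 8 calls in sham rats against 4 after vagotomy are therefore not shown to differ. The median difference was -0.16 in the core and -0.11 in the cap, beside -0.004 for all genes. Without the 4 libraries low in 5.8S it was -0.03 in the core and -0.09 in the cap. Left out singly, Sham_Air 1 or HepV_O3 1 moved the core median to -0.26, and the cap median ran from -0.17 (without Sham_O3 4) to -0.07 (without Sham_O3 3).

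Summed over the 14 core genes, normalised counts ran from 9884 to 12744 in Sham_Air, 9757 to 12095 in HepV_Air, 11151 to 15615 in Sham_O3 and 11298 to 12308 in HepV_O3. Summed over the 20 cap genes they ran from 19215 to 21468, 18904 to 20883, 20580.2 to 25657 and 20021 to 21823 in the same order. Within Sham_O3, libraries 1, 2 and 3 had core sums of 14092, 15615 and 15239, and libraries 4, 5 and 6 had 11151, 11879 and 11551. The sham ozone group thus held both the 3 highest core sums of the study and 3 that overlapped the other groups. HepV_O3 lay within a narrow range. Sham_O3 libraries 1 and 2 also had the highest totals of normalised counts over all genes, 18452459 and 19603241. The next highest total was 17881423 in Sham_O3 5, whose core sum was among the lower 3. Sham_O3 3 is among the libraries set apart above for low ribosomal RNA. Cap sums of Sham_O3 split in the same way. Libraries 1, 2 and 3 had 25657, 24315 and 22163, and libraries 4, 5 and 6 had 20580.2, 21443 and 21355. The split was therefore not particular to the core genes. The sums were not divided by the totals over all genes, and whether the split is particular to proteasome genes was not tested. The difference between the mean log2 level of core and cap genes had overlapping ranges in all 4 groups. It ran from -0.54 to -0.27 in Sham_Air, -0.57 to -0.16 in HepV_Air, -0.55 to -0.09 in Sham_O3 and -0.61 to -0.25 in HepV_O3.

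**Figure D3:**
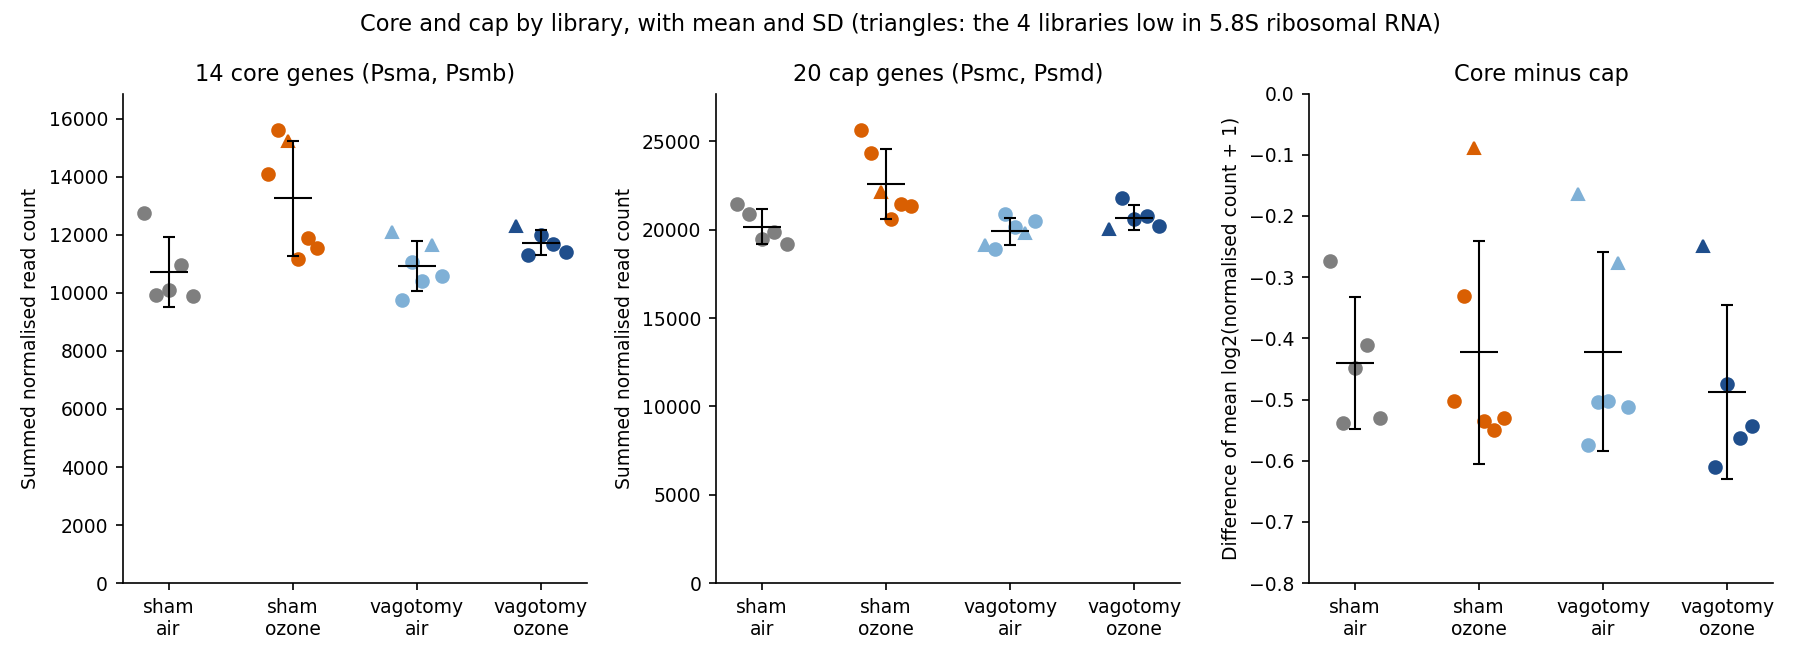
Summed normalised count of the core genes (left) and cap genes (middle), and the difference of their mean log2 levels (right), 1 point a library with mean and SD of each group; triangles are the 4 libraries low in 5.8S ribosomal RNA. In the right panel the triangles, at -0.28 to -0.09, are the highest points of their groups.

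In the 4 libraries low in 5.8S, which belong to 3 groups, the core lay closer to the cap, at -0.28 to -0.09, than in the other 18, at -0.61 to -0.27, where only Sham_Air 1 (-0.27) reached that range. Single members of these libraries differed from their groups in opposite directions. Measured from the mean of the other libraries of the group, Psmb6 was higher in the 4 by 1.24 to 1.88, Psma6 by 0.92 to 1.35, Psmb5 by 0.90 to 1.19 and Psmc2 by 0.73 to 0.83 (log2). Psma3 was at -0.55 to -0.20, Psmd5 at -0.62 to -0.33, Psmc3 at -0.69 to -0.34 and Psmc6 at -0.43 to -0.34. In the libraries low in 5.8S Psmb5 stood at 673, 709, 875 and 787, and in the other 18 at 324 to 609. All 4 libraries lay above their group for 7 of 14 core and 8 of 20 cap genes, beside 26.8% of all genes. All 4 lay below it for Psma1, Psma2, Psma3 and Psmb7 of the core. In the cap this held for Psmc3, Psmc6, Psmd3, Psmd5, Psmd6, Psmd11 and Psmd14. The share of all genes below in all 4 was not counted. The median deviation was 0.33 in the core, -0.05 in the cap and -0.009 over all tested genes. With these libraries included, the within-group SD of log2 values was highest for Psmb6 (0.75), Psma6 (0.50) and Psmb5 (0.48), beside medians of 0.25 in the core, 0.17 in the cap and 0.28 over all tested genes. None of the 4 is in Sham_Air, and their part in each result was not tested beyond the values given without them.

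**Figure D4:**
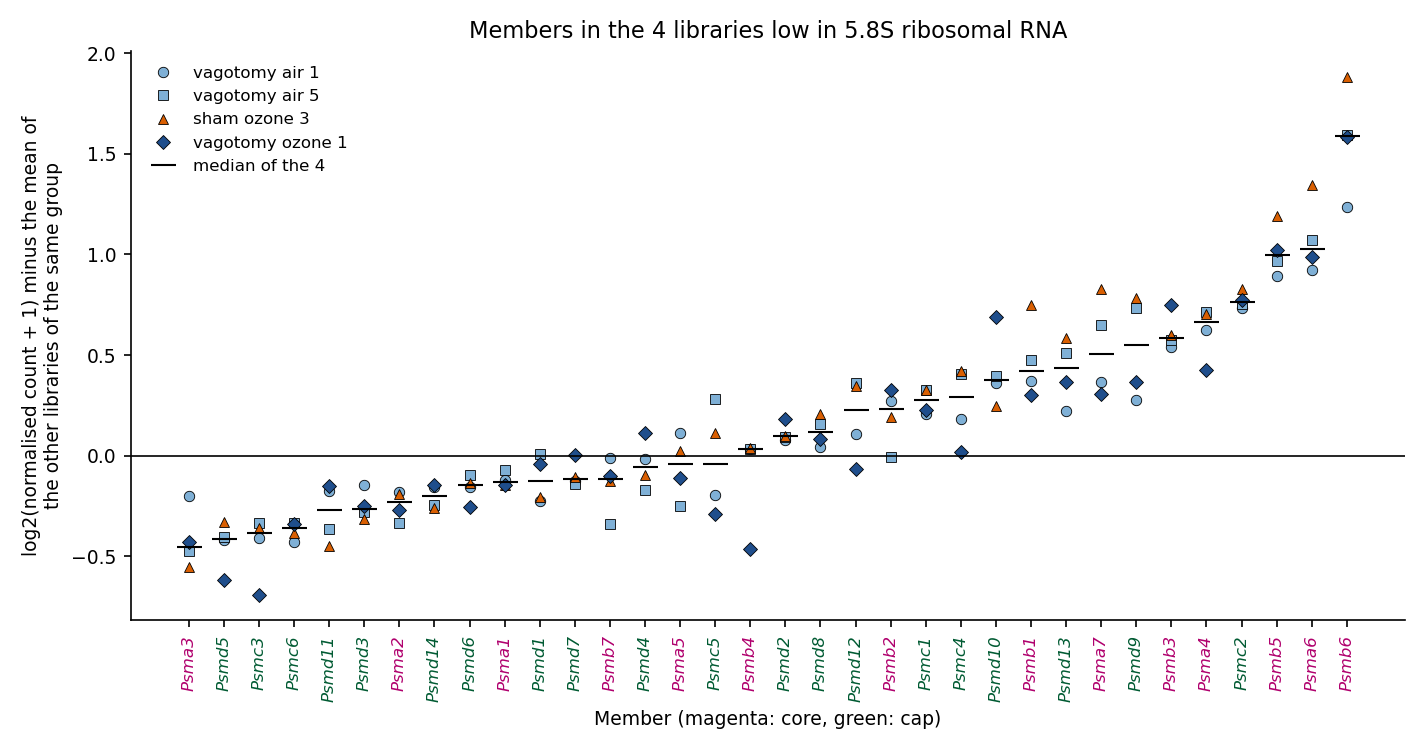
Each member's log2(normalised count + 1) in the 4 libraries low in 5.8S ribosomal RNA, minus the mean of the other libraries of the same group, ordered by the median of the 4; core names are magenta and cap names green. By the median of the 4, Psmb6, Psma6 and Psmb5 stand at the upper end and Psma3, Psmd5 and Psmc3 at the lower end. The former lie above 0 and the latter below 0 in all 4 libraries.

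Genes listed for the NRF1 pathway make or process the factor that drives proteasome genes, or code for its small Maf partners (Mafg and Mafk). Of the 9 listed, 6 rose in sham rats and 3 in vagotomised rats, beside 14.6% and 11.4% of all genes, and none fell. The list median was 0.45 and 0.24. Nfe2l1, which codes for NRF1, stood at 1394, 1838, 1806, 1857 and 1908 in Sham_Air and at 1988 to 2470.3 (median 2253, n = 6) in Sham_O3, a change of 0.34 ± 0.09 (SE, adjusted p = 0.0085). After vagotomy it stood at 1488 to 1968 (median 1874, n = 6) and at 2090.3, 2365, 2432, 2149 and 2285, a change of 0.32 ± 0.09 (SE, adjusted p = 0.015). In both surgery groups every ozone library lay above every air library. Mafk, a small Maf partner of NRF1 and NRF2, stood at 277, 256, 243, 264 and 288 and at 469 to 655 (median 563, n = 6), a change of 1.07 ± 0.09 (SE, adjusted p = 2.5e-08), and changed by 0.54 ± 0.09 (SE, adjusted p = 0.00019) after vagotomy. Nploc4, which with Ufd1l and Vcp draws proteins out of the endoplasmic reticulum, changed by 0.53 ± 0.08 (SE, adjusted p = 5.0e-05) and 0.28 ± 0.08 (SE, adjusted p = 0.018). Ufd1l changed by 0.45 ± 0.10 (SE, adjusted p = 0.0012) and 0.24 ± 0.10 (SE, adjusted p = 0.079), and Mafg by 0.53 ± 0.12 (SE, adjusted p = 0.0024) and 0.14 ± 0.12 (SE, adjusted p = 0.48). Ddi2, the protease that cuts NRF1, changed by 0.56 ± 0.20 (SE, adjusted p = 0.039) and 0.38 ± 0.20 (SE, adjusted p = 0.19). Since limma called 0 genes for the difference of the ozone changes, none of these genes is shown by limma to differ between the surgeries. For that difference 3 of the 9 had an unadjusted p under 0.05 by limma, beside 9.23% of all genes. In direction, 7 of the 9 lay below 0 and 2 above. Ngly1, Vcp and Syvn1 were called in neither ozone comparison.

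**Figure D5:**
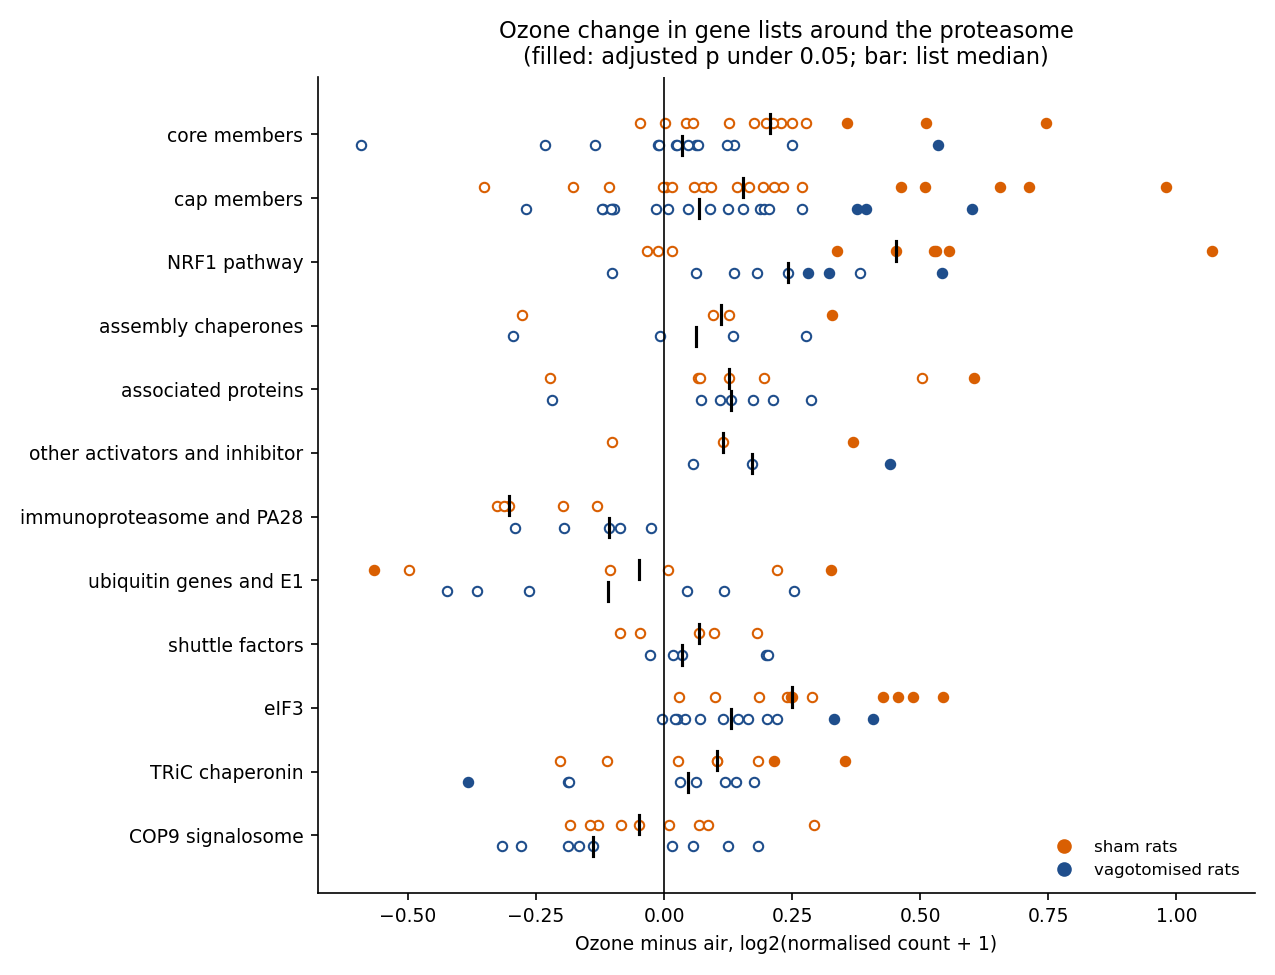
Change from air to ozone of each tested gene in 12 lists, as log2(normalised count + 1), in sham (orange) and vagotomised rats (blue); filled points passed an adjusted p of 0.05 and bars are list medians. The NRF1 pathway has 6 filled points in sham rats and 3 after vagotomy, and the immunoproteasome list lies below 0 with no filled point.

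Of 6 assembly factors listed, 4 were tested and 1 rose in sham rats (25.0%, beside 14.6% of all genes), Paaf1 was not analysed here, and Pomp, the maturation factor of the core, had a mean of 5.42, under the minimum. The 1 that rose was Psmg4 (0.33 ± 0.12 (SE, adjusted p = 0.042)), which did not pass after vagotomy (0.28 ± 0.12 (SE, adjusted p = 0.10)). Among other activators and the inhibitor, Psme3, the nuclear activator PA28-gamma, rose in both, by 0.37 ± 0.10 (SE, adjusted p = 0.0097) and 0.44 ± 0.10 (SE, adjusted p = 0.0037), while Psme4 and Psmf1 were not called. Of 7 tested associated proteins Adrm1, a ubiquitin receptor of the cap, rose in sham rats and no other passed (14.3%, close to the share of all genes). Adrm1 stood at 735, 647, 626, 732 and 697 in Sham_Air and at 859 to 1267 (median 1041, n = 6) in Sham_O3, a change of 0.61 ± 0.11 (SE, adjusted p = 0.00028) without overlap. In HepV_O3 it stood at 718, 787, 773, 882 and 896, a change of 0.13 ± 0.11 (SE, adjusted p = 0.46).

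The immunoproteasome genes replace the catalytic beta subunits in cells exposed to interferon, and with the PA28 genes Psme1 and Psme2 they form a list of 5. None was called in either ozone comparison, and all 5 changes were below 0 in both. In sham rats Psmb8 changed by -0.20 ± 0.20 (SE, adjusted p = 0.50), Psmb9 by -0.30 ± 0.30 (SE, adjusted p = 0.49) and Psmb10 by -0.33 ± 0.21 (SE, adjusted p = 0.26). Like Psmb5 and Psmb6, Psmb8 was high in the 4 libraries low in 5.8S, at 1469 to 1649 against at most 1150.0 elsewhere. Without those libraries 3 of the 5 were called lower after ozone in sham rats, Psmb9 (-0.52 ± 0.18 (adjusted p = 0.028)), Psmb10 (-0.47 ± 0.16 (adjusted p = 0.023)) and Psme2 (-0.41 ± 0.12 (adjusted p = 0.011)), and 0 after vagotomy. In those fits 16.8% and 10.2% of all genes fell.

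Genes of ubiquitin supply and delivery were counted beside the 14.6% of all genes that rose and 13.8% that fell in sham rats, and the 11.4% and 9.63% after vagotomy. Of 6 ubiquitin and E1 genes, Rps27a, which codes for a ubiquitin fusion, rose in sham rats (0.33 ± 0.10 (SE, adjusted p = 0.019)) and the E1 enzyme gene Uba6 fell (-0.57 ± 0.17 (SE, adjusted p = 0.017)), and 0 passed after vagotomy. Of 5 shuttle factors, which carry ubiquitinated proteins to the cap, 0 passed in either, and Rad23b had the smallest p in sham rats (0.18 ± 0.12 (SE, adjusted p = 0.30)). For comparison, 3 other large complexes were counted beside the same shares. In the translation factor eIF3, 5 of 12 tested genes rose in sham rats (41.7%) and 2 of 12 after vagotomy (16.7%), with Eif3c (0.49 ± 0.08 (SE, adjusted p = 0.00011)) and Eif3b (0.46 ± 0.09 (SE, adjusted p = 0.00089)) first, and a list median of 0.25 and 0.13. In the TRiC chaperonin 2 of 8 rose in sham rats (25.0%), Cct6a (0.35 ± 0.10 (SE, adjusted p = 0.011)) and Cct7 (0.21 ± 0.08 (SE, adjusted p = 0.038)), and after vagotomy Tcp1 fell (-0.38 ± 0.13 (SE, adjusted p = 0.044)). In the COP9 signalosome, which resembles the proteasome lid, 0 of 9 passed in either.

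Markers of hepatocytes and of other cell types were read beside these changes. Of all genes 14.6% rose and 13.8% fell in sham rats, and 11.4% rose and 9.63% fell after vagotomy. In sham rats ozone was followed by a rise in 2 of 6 hepatocyte markers (Cps1 and Cyp2e1), a fall in 1 of 6 macrophage markers (Cd68, -0.64 ± 0.24 (SE, adjusted p = 0.049)), a rise in 1 of 5 stellate cell markers (Dcn, 1.27 ± 0.35 (SE, adjusted p = 0.0090)), and no call among 4 endothelial, 3 cholangiocyte, 1 neutrophil and 2 erythroid markers tested. In sham rats 5 of the 6 hepatocyte markers lay above 0 and 1 below, with a list median of 0.24. The medians of members there were 0.21 for the core and 0.15 for the cap. Of the macrophage markers 3 lay above 0 and 3 below, with a list median of -0.003. The other 4 stellate markers lay below 0, from -0.22 (Reln) to -1.01 (Col1a1, adjusted p = 0.055), and the list median was -0.41, so that list had no common direction. After vagotomy 1 of 6 hepatocyte markers (Apoa1) and 1 of 4 tested endothelial markers (Lyve1) rose. The other 3 endothelial markers lay below 0 (list median -0.04), so that list had no common direction. Of the hepatocyte markers 4 lay above 0 and 2 below after vagotomy, with a list median of 0.19, beside 0.04 for the core and 0.07 for the cap. Summed macrophage markers ran from 3746 to 4935 in Sham_Air, 3515 to 5887 in HepV_Air, 3601 to 5306 in Sham_O3 and 3477 to 7251 in HepV_O3, and no T and B cell marker reached the minimum. In whole liver, more cells of a type and more RNA per cell cannot be told apart, and the part of cell type in the changes of members was not tested.

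Some members share their start region or their sequence with other genes. In the GRCr8 annotation 7 members lie head to head with another gene within 1000 bases. Psmc5 is one, with Ftsj3, a gene of ribosome processing, and Ftsj3 also rose, by 0.80 ± 0.11 (adjusted p = 7.6e-06) and 0.51 ± 0.11 (adjusted p = 0.0014). The neighbours Mrpl32 of Psma2, Tbp of Psmb1, Atg4a of Psmd10 and Sirt3 of Psmd13 were called in neither ozone comparison. Overlaps with another annotated gene occur for 10 members, Psmc1, Psmc5 and Psma1 among those that rose, and the strand used in counting is not given in the sources used here, so reads of overlapping genes cannot be told apart. Copies are named after 15 members in the annotation (pseudogene or "like" symbols), 39 in all, 10 of them for Psmb3, 5 for Psma6 and 3 each for Psma7, Psmb6 and Psmc4. Among genes that rose, Psma3 has 2, and Psmb4 and Psmd12 have 1 each. None of the 39 is a row of the table analysed, and their sequences were not compared with the members. How shared reads were counted is not given in the sources used here, so levels of these members are less certain.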

How the data were processed

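Liver RNA of rats was sequenced in 22 libraries of 4 groups named in the labels. The values the authors deposited are a signal, normalised read counts of each gene, made with STAR, build rn6, Partek, DESeq and DESeq2 per the submitters' processing notes, which give no versions. Each value was a whole multiple of 1 step per library within 0.001 (100% of values), which gave back the reads. All 22 columns were used.

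Values were analysed as log2(count + 1) for the 12424 of 14971 genes with a mean of at least 10. All 22 libraries entered a single linear model of group means (limma 3.58.1, R 4.3.3, with an intensity trend), from which 5 two-sided comparisons were taken, with Benjamini-Hochberg adjustment over all genes. Scaling by 1 factor per library makes each change relative to the other genes, and log2(count + 1) understates changes of low genes. edgeR 4.0.16 and DESeq2 1.42.0 on the recovered reads, other pseudocounts (0.5 and 5), no minimum or a minimum of 50, 2 rescalings, a replicate block, fits of only the groups compared, and leaving out each library or the 4 libraries low in 5.8S ribosomal RNA (under 200 normalised counts) were alternatives. The script was tested on simulated data for ozone in sham rats (12424 genes). Recovery was 41.8% for genes simulated at 1.5-fold, 80.6% at 2-fold and 95.5% at 4-fold, and 8 of the 12224 genes left alone were called. Only 67, 67 and 66 genes were changed at these folds, whereas 28.4% of genes were called in the data. The changed genes were drawn at random over all count levels. Recovery of the members in the data can therefore differ from these rates. No 2 libraries of a group agreed within sampling noise (lowest chi-square per degree of freedom 9.3 over 50 pairs).

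Members, lists and alternatives were chosen with earlier results of these data known. Values by library are given for members called in any comparison, the 3 catalytic genes and the 2 largest rises and falls in each ozone comparison, and from other lists for up to 4 called genes by p and for Nfe2l1. Of a list with no call, the gene with the smallest p is given. Sequences and neighbours came from RefSeq build GRCr8, matched by symbol (30 of 34 promoters). No coordinates of build rn6 are given.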

Additional observations from a re-analysis of the deposited data

Results flagged for a closer look

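In 7 of 72 groups of 1 gene tested, 1 library lay far from the rest by Dixon's test at the 95% level, and chance flags about 1 in 20 groups. Of the 7, 6 were libraries low in 5.8S ribosomal RNA, and whether the 2 are connected was not tested. In Sham_O3 3, Psmd9 stood at 489 against 266 to 340.2 in the other 5 libraries, Psmb5 at 875 against 332 to 500.3, and Psmb6 at 148 against 28.3 to 63.0. In HepV_O3 1, Psmc3 stood at 758 against 1190.5 to 1291, Psmb5 at 787 against 339.9 to 454, and Psmb6 at 98.2 against 24.3 to 45.0. In Sham_Air 1, which was not low in 5.8S, Psmb6 stood at 85.6 against 39.6 to 50.6. Psmb6 had 26 to 169 reads per library, so counting error is larger for it than for the other catalytic genes.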

How the results depend on the processing

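Counts of members called were 8 to 11 for ozone in sham rats, 3 to 6 for ozone after vagotomy, and 0 for vagotomy in air and for the difference of the ozone changes, over the 34 other settings (33 for the difference, since a fit of only the groups compared does not exist for it). For vagotomy in ozone the count was 0 except with DESeq2, which called 1 (Psmd7, -0.27). Leaving out each library gave 8 to 10, 3 to 6, 0, 0 and 0. Signs turned for some uncalled values. Without the 4 libraries low in 5.8S the vagotomy difference in air was -0.28 for Psmb5 (0.03 with all) and -0.21 for Psmb6 (0.26 with all). With equal totals the ozone change of Psmd7 in sham rats was -0.0114 (0.09 as deposited). The ozone change of Psma1 after vagotomy was 0.02 as deposited and as low as -0.04 among the 34 other settings. The cause was not tested. Psmd5, at -0.35 and adjusted p = 0.067 in sham rats, passed as a fall at adjusted p from 0.015 (equal upper quartiles) to 0.0499 (DESeq2) in 8 settings. Over all genes, vagotomy in ozone had 166 calls, 206 higher and 160 lower with DESeq2, 272 without the 4 libraries and 14 in a fit of only the groups compared. The replicate numbers do not pair libraries: 31 same-numbered pairs had a median correlation of 0.0255, against 0.0446 for 150 others, and 2 libraries correlated best with their own number. A replicate block gave 8, 4, 0, 0 and 0 calls and changed no call of a named member. Precision is limited by the group sizes, and for Psmb6 and Psmd10 by counts under 170 reads per library.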
